A study of Homo sapiens with 6 samples.

Results

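The 10 immediate early genes FOS, FOSB, FOSL1, FOSL2, JUN, JUNB, JUND, EGR1, IER2 and IER3 were read by symbol from arrays of 18417 genes, and all 10 were measured. Each gene was taken from the row that carries its symbol alone; only IER3 had several, 3, of which the one with the highest mean over the 6 arrays was used. The RNA came from RD18, an established cell line from an embryonal rhabdomyosarcoma, which is a soft-tissue cancer whose cells resemble developing muscle. Of its derivative NpBI-22, which expresses miR-22 when induced, 2 biological replicates were grown with doxycycline at 1 µg/ml for 6 days (induced) and 2 were left untreated (non-induced). The derivative NpBI-206AS was a further control, with 1 array of cells given the same doxycycline treatment and 1 of untreated cells. The labels do not say what the NpBI-206AS construct makes or whether either derivative is a single clone. All values are log2 expression, so that 1 unit is a 2-fold difference. With 2 arrays per NpBI-22 group and 1 per NpBI-206AS group, the number of arrays limits the precision of every value.

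Immediate early genes are transcribed within minutes of a growth factor, serum or stress signal, without new protein synthesis, and are shut off soon after. FOS family proteins pair through a leucine zipper with JUN family proteins to form the transcription factor AP-1, and JUN proteins can also pair with each other. EGR1 is a zinc-finger factor switched on by ERK signalling through serum response factor. IER2 encodes a nuclear protein, and IER3 a regulator of cell survival that is not a DNA-binding factor. In muscle cells, high JUN and FOS activity is known to oppose the differentiation driven by MYOD1.

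The microRNA made on induction and the promoters of the 4 members with the highest induced levels relative to the other arrays are shown, because these sequences carry the treatment and the genes on which the results turn. The mature miR-22-3p is encoded at chr17:1713914-1713935 on the minus strand of GRCh38.p14, and capitals mark its seed, bases 2 to 8.
miR-22-3p: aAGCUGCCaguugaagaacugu
Each promoter line gives the 250 bases before the annotated start, read 5′ to 3′ along the gene, from RefSeq (GRCh38.p14). The positions are chr14:75278578-75278827 on the plus strand for FOS, chr19:13150161-13150410 on the plus strand for IER2, chr5:138465229-138465478 on the plus strand for EGR1 and chr1:58784048-58784297 on the minus strand for JUN. Capitals mark matches, on either strand, to the CArG box of serum response factor, the cyclic AMP response element (CRE) TGACGTCA and its half-site TGACG, the AP-1 site TGACTCA, the EGR site GCGTGGGCG and the TATA box TATAAA.
FOS: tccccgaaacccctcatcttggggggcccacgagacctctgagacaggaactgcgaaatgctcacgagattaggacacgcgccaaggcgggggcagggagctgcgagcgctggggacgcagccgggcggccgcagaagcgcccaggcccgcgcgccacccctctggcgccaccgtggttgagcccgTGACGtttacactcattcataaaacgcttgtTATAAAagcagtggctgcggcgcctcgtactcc
IER2: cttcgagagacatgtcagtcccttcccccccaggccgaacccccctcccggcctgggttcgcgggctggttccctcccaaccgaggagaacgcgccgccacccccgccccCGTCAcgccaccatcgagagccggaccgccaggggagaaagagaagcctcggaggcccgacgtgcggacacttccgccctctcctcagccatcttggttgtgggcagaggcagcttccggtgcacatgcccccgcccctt
EGR1: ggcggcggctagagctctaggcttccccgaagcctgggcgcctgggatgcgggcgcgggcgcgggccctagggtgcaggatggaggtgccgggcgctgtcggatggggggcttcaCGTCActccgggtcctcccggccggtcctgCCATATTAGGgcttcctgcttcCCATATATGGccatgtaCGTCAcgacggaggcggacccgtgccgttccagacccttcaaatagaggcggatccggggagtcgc
JUN: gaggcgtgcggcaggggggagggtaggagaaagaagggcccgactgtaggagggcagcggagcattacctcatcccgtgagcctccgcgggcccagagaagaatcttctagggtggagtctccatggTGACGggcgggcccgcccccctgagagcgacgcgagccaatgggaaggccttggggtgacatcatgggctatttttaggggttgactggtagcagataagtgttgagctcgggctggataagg
The EGR1 window held 2 CArG boxes, a motif present in 1.14% of 27305 such windows, whereas the FOS, IER2 and JUN windows held none. All 8 members found in the promoter table held the half-site TGACG, which occurred in 21.7% of all windows and lies inside every full CRE. The full CRE was found only in JUND (1.77% of all windows), and TATAAA only in FOS, FOSB and JUNB (11.1%). None of the 8 held the AP-1 site (4.16%) or the EGR site (0.71%). Of these motifs, TGACG was chosen after the sequences had been seen. A match is a string of letters and not a shown binding site, and other elements of these genes may lie outside the window.

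Before the members, the arrays themselves were compared. The host gene MIR22HG read 10.0 on both induced NpBI-22 arrays (10.02 and 10.01) and 6.27 to 6.72 on the other 4, in accord with the labels. The labels also carry an array code whose meaning they do not give: both induced NpBI-22 arrays have the prefix R715, non-induced NpBI-22 replicate 1 has R509, and the remaining 3 arrays have R587. If the prefix marks a batch, it cannot be told apart from induction of miR-22 in any comparison below that uses the induced NpBI-22 arrays. The muscle markers MYOD1 (8.88 to 9.74) and MYOG (8.57 to 10.11) were well above the lower quartiles of the arrays (3.92 to 4.01), and MYF5 lay at 3.88 to 3.96. Markers of other cell types lay under that quartile on all 6 arrays in 1 of 4 measured for blood (PTPRC) and 1 of 4 for epithelium (EPCAM), but in 0 of 4 for endothelium and 0 of 5 for fibroblasts. Some of them read high on every array: KRT18 of epithelium at 9.93 to 10.56, TEK of endothelium at 7.33 to 7.78, and COL3A1 and COL1A1 of fibroblasts at 11.57 to 11.98 and 9.43 to 10.25. None of these 4 lists had a called gene on induction of NpBI-22 cells, and against all 4 other arrays 1 of the 5 fibroblast markers, DCN, rose (1.19, limma adjusted p = 0.0432), beside 6.32% of all rows. These genes were named after their values had been seen.

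Across all 10 members, induction of miR-22 went with higher FOS and IER2, and no member passed the test downward. In induced against non-induced NpBI-22 cells, 2 of 10 members were higher at a limma adjusted p under 0.05 and 0 lower, against 1.59% and 2.01% of all 33297 rows; another 2, EGR1 and JUN, were higher at an unadjusted p under 0.05 only, which 10.6% of all rows reached upward and 11% downward. The median log2 difference of the 10 was 0.06, beside -0.0097 over all rows. A comparison with 4 arrays as controls shares the induced arrays and both non-induced NpBI-22 arrays with the first. Its controls pool 2 lines and, in NpBI-206AS cells, both doxycycline conditions, and its p-values treat them as replicates of 1 group. It called 3 of 10 higher (FOS, IER2 and EGR1) and 0 lower, against 6.32% and 7.43% of rows. The median was 0.19, beside 0.015 over all rows. Both induced arrays lay above all 4 others for 4 members, FOS, IER2, EGR1 and JUN, and below all 4 for FOSL1 and FOSL2; the same held for 19.4% and 18.3% of all rows. With any 1 NpBI-22 array left out of the first comparison, 1 group held a single array. The calls of FOS and IER2 were then lost, together with those of all other rows. FOS then gave log2 differences of 0.88 to 1.06 and IER2 of 0.87 to 1.11. In the second comparison 3 members still passed without non-induced replicate 1 or 2, when 7463 and 2641 rows passed in place of 4576. Leaving out an induced array there left that group a single array, and the call of EGR1 was lost.

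**Figure D1:**
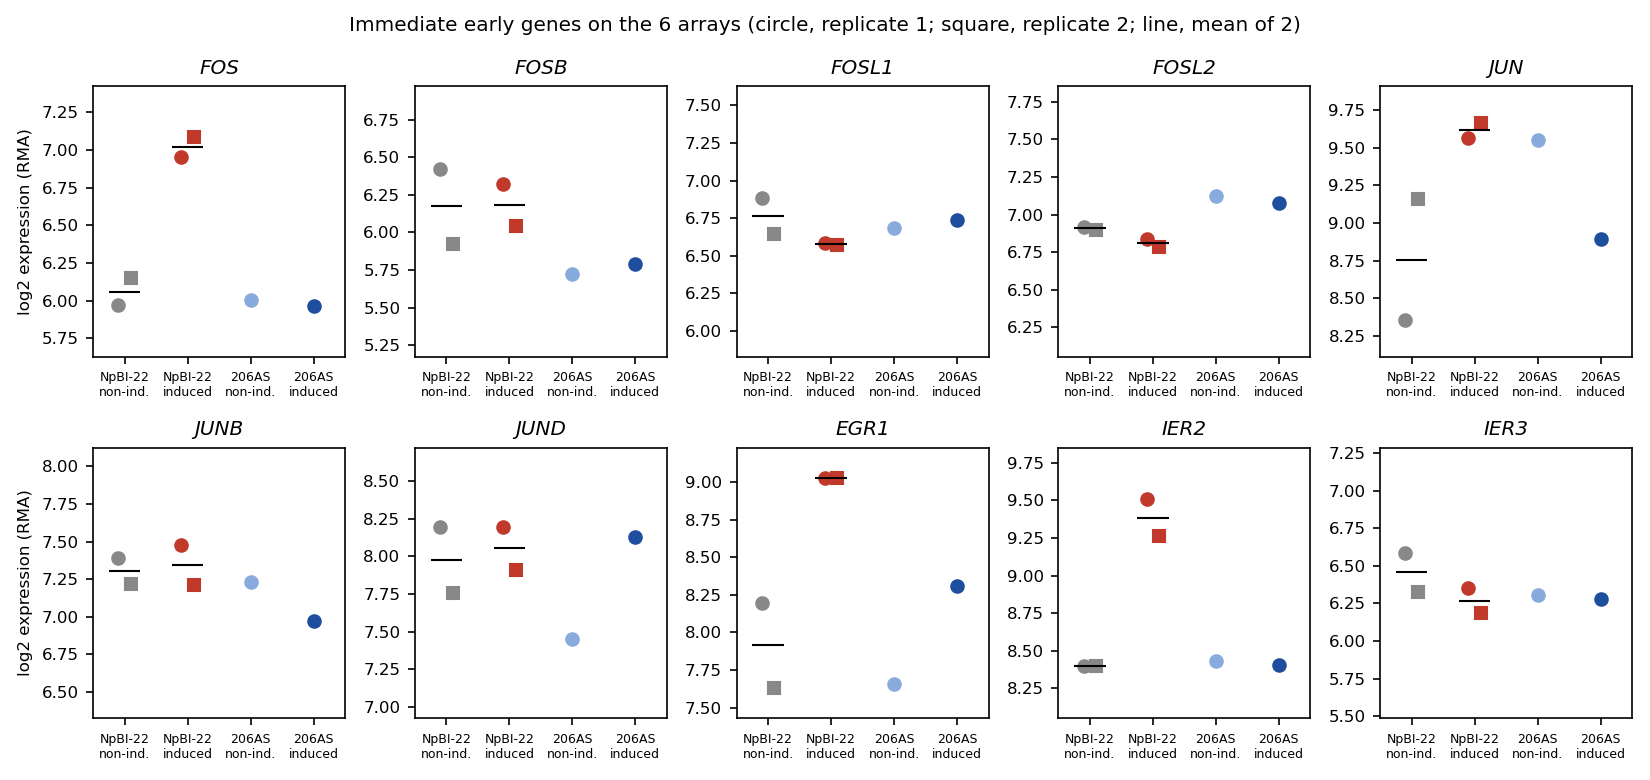
Log2 expression of the 10 genes on each of the 6 arrays, 1 panel per gene, every vertical axis spanning the same number of log2 units; circles are replicate 1, squares replicate 2, and lines the mean of 2 NpBI-22 arrays. FOS and IER2 have both induced NpBI-22 arrays far above the other 4, while FOSB, JUNB, JUND and IER3 overlap.

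FOS, the founding member of its family and a strongly signal-dependent AP-1 subunit, read 6.96 and 7.09 on the 2 induced NpBI-22 arrays and 5.97 and 6.15 on the 2 non-induced ones. In NpBI-206AS cells it read 6.00 without and 5.96 with doxycycline. The 4 arrays without induced miR-22 thus lay close together and the 2 induced NpBI-22 arrays apart from them. On induction FOS rose 1.95-fold (limma adjusted p = 0.0414), a log2 change of 0.97 with SE 0.159. Against all 4 other arrays the log2 change was 1.00 (SE 0.115, limma adjusted p = 0.00267).

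The other FOS family genes showed no such step. FOSB, a close relative of FOS that is also signal-dependent, read 6.32 and 6.04 on the induced and 6.42 and 5.92 on the non-induced NpBI-22 arrays, and 5.73 and 5.79 in NpBI-206AS cells without and with doxycycline. In FOSB both replicate 1 arrays were the higher ones of their pairs, and the groups overlapped (log2 difference 0.0094, 95% interval -0.54 to 0.56). FOSL1, also called FRA-1, which lacks the transactivation domain of FOS, read 6.58 and 6.57 on the induced and 6.88 and 6.64 on the non-induced NpBI-22 arrays, and 6.68 and 6.74 in NpBI-206AS cells. FOSL2, also called FRA-2, read 6.83 and 6.78 on the induced and 6.92 and 6.90 on the non-induced NpBI-22 arrays, and 7.13 and 7.08 in NpBI-206AS cells. Both genes were thus lowest on the induced NpBI-22 arrays, without overlap, by amounts that did not pass: the log2 differences from non-induced NpBI-22 cells were -0.19 for FOSL1 (95% interval -0.59 to 0.22) and -0.10 for FOSL2 (95% interval -0.46 to 0.26). The intervals of these 3 genes exclude a 2-fold change in either direction.

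JUN, the AP-1 subunit that can bind DNA as a pair with itself, varied most among the arrays without induced miR-22. It read 9.57 and 9.66 on the induced and 8.36 and 9.16 on the non-induced NpBI-22 arrays. In NpBI-206AS cells it read 9.55 without and 8.89 with doxycycline. The non-induced NpBI-206AS array therefore came within 0.06 of the mean of the induced NpBI-22 arrays, and the range over all 6 arrays was 1.31. The log2 difference on induction of NpBI-22 cells was 0.86 (SE 0.281, limma adjusted p = 0.156), and against all 4 other arrays 0.63 (SE 0.293, limma adjusted p = 0.215).

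JUNB and JUND, AP-1 subunits of the JUN family that activate transcription less than JUN in many settings, overlapped between the groups. JUNB read 7.48 and 7.21 on the induced and 7.39 and 7.22 on the non-induced NpBI-22 arrays, and 7.23 and 6.97 in NpBI-206AS cells without and with doxycycline. JUND, the member of the family that is least dependent on signals, read 8.20 and 7.91 on the induced and 8.20 and 7.76 on the non-induced NpBI-22 arrays, and 7.45 and 8.13 in NpBI-206AS cells without and with doxycycline. For both genes, as with FOSB, FOSL1, FOSL2 and IER3, the replicate 1 array was the higher one in each NpBI-22 pair. The log2 differences on induction of NpBI-22 cells were 0.04 for JUNB (95% interval -0.39 to 0.47) and 0.08 for JUND (95% interval -0.45 to 0.61).

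EGR1 had the largest difference of the 10 on induction of NpBI-22 cells but a wide spread among its controls. It read 9.02 and 9.03 on the induced and 8.20 and 7.63 on the non-induced NpBI-22 arrays. In NpBI-206AS cells it read 7.66 without and 8.31 with doxycycline. The induced NpBI-22 arrays were the highest, followed by induced NpBI-206AS cells and non-induced NpBI-22 replicate 1, which differed by less than the 2 non-induced replicates did. The difference on induction was 2.16-fold (log2 1.11, SE 0.222, limma adjusted p = 0.0604), so EGR1 did not pass there. It rose against all 4 other arrays (log2 change 1.08, SE 0.218, limma adjusted p = 0.0183). Without induced replicate 1 or induced replicate 2 that call was lost (limma adjusted p = 0.133 and 0.117).

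IER2 gave the most uniform control values of the 10. It read 9.51 and 9.26 on the induced NpBI-22 arrays, and 8.397 and 8.398 on the 2 non-induced ones. In NpBI-206AS cells it read 8.44 without and 8.41 with doxycycline. The SD over these 4 control arrays was 0.018, well under the SD of 0.17 between the 2 induced arrays. On induction IER2 rose 1.98-fold (limma adjusted p = 0.0411), a log2 change of 0.99 with SE 0.162, and by 0.98 against all 4 other arrays (SE 0.115, limma adjusted p = 0.00283). IER3 read 6.35 and 6.18 on the induced and 6.59 and 6.33 on the non-induced NpBI-22 arrays, and 6.31 and 6.28 in NpBI-206AS cells. Its groups overlapped, with a log2 difference of -0.19 (95% interval -0.62 to 0.24). Of its 3 rows, 2 held the same values on every array, and the third differed from non-induced to induced cells by nearly the same amount (-0.18).

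**Figure D2:**
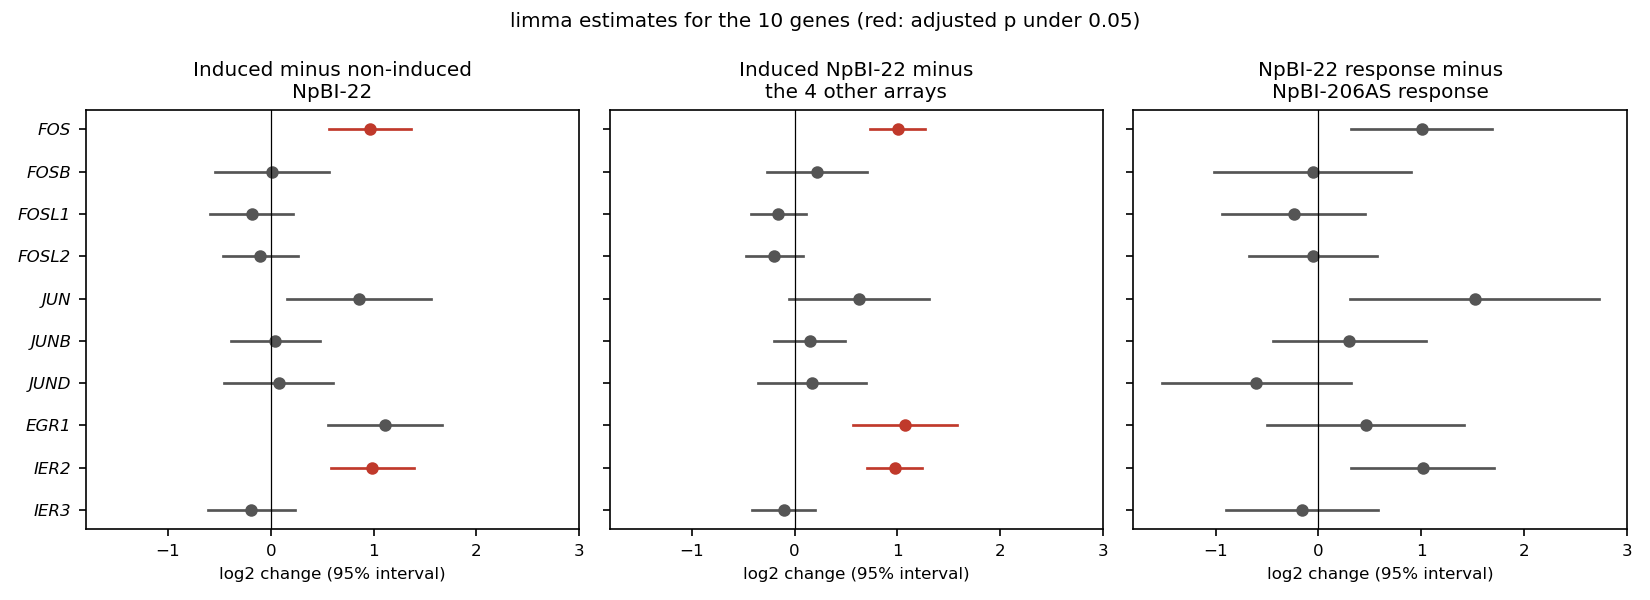
limma log2 changes of the 10 genes (points) with 95% intervals (lines) in 3 comparisons, on 1 horizontal scale; red marks an adjusted p under 0.05. FOS and IER2 pass in the first 2 comparisons, EGR1 in the second, and no gene in the third.

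Differences with doxycycline but without induced miR-22 were read in the NpBI-206AS pair, which has 1 array per condition and no test of its own. The treated cells are labelled induced, and what their construct makes is not given. An effect of doxycycline itself therefore cannot be told apart from one of that construct. FOS, IER2, IER3, FOSB, FOSL1 and FOSL2 differed there by 0.064 or less on the log2 scale in either direction. JUND and EGR1 were at least 1.5-fold higher with doxycycline, by 0.68 and 0.65, and JUN at least 1.5-fold lower, by a log2 difference of -0.66. The same fold was reached upward by 1.32% and downward by 2.04% of all rows. Among the 18417 genes it was reached by 106 upward and 129 downward. JUNB was lower by a smaller amount (-0.26). For EGR1 the NpBI-206AS difference had the sign of the NpBI-22 difference, and for JUN the opposite sign.

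The response of NpBI-22 cells minus that of NpBI-206AS cells was tested in the same linear model. It was 1.01 for FOS (SE 0.275), 1.02 for IER2 (SE 0.280) and 1.52 for JUN (SE 0.486), with limma adjusted p of 0.418, 0.42 and 0.486. The corresponding unadjusted p were 0.012, 0.0123 and 0.0223. For EGR1 the difference was 0.46 (SE 0.385, limma adjusted p = 0.802), and for JUND -0.61 (SE 0.369, limma adjusted p = 0.706). No member passed this test, and neither did any of the 33297 rows (0% called, 2957 rows at an unadjusted p under 0.05). The response of a single control pair rests on the spread of the NpBI-22 arrays, since its own spread is unknown.

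Set against induced NpBI-206AS cells, which had the same doxycycline treatment, the mean of the induced NpBI-22 arrays was higher by 1.06 for FOS, 0.98 for IER2, 0.72 for JUN and 0.72 for EGR1. These 4 of 10 members were at least 1.5-fold higher and 0 were that much lower, against 7.01% and 9.84% of all rows. Against non-induced NpBI-206AS cells the same 4 genes gave 1.02, 0.95, 0.06 and 1.37. FOS and IER2 thus differed by nearly the same amount from either NpBI-206AS array, whereas JUN and EGR1 depended on which of them was used.

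**Figure D3:**
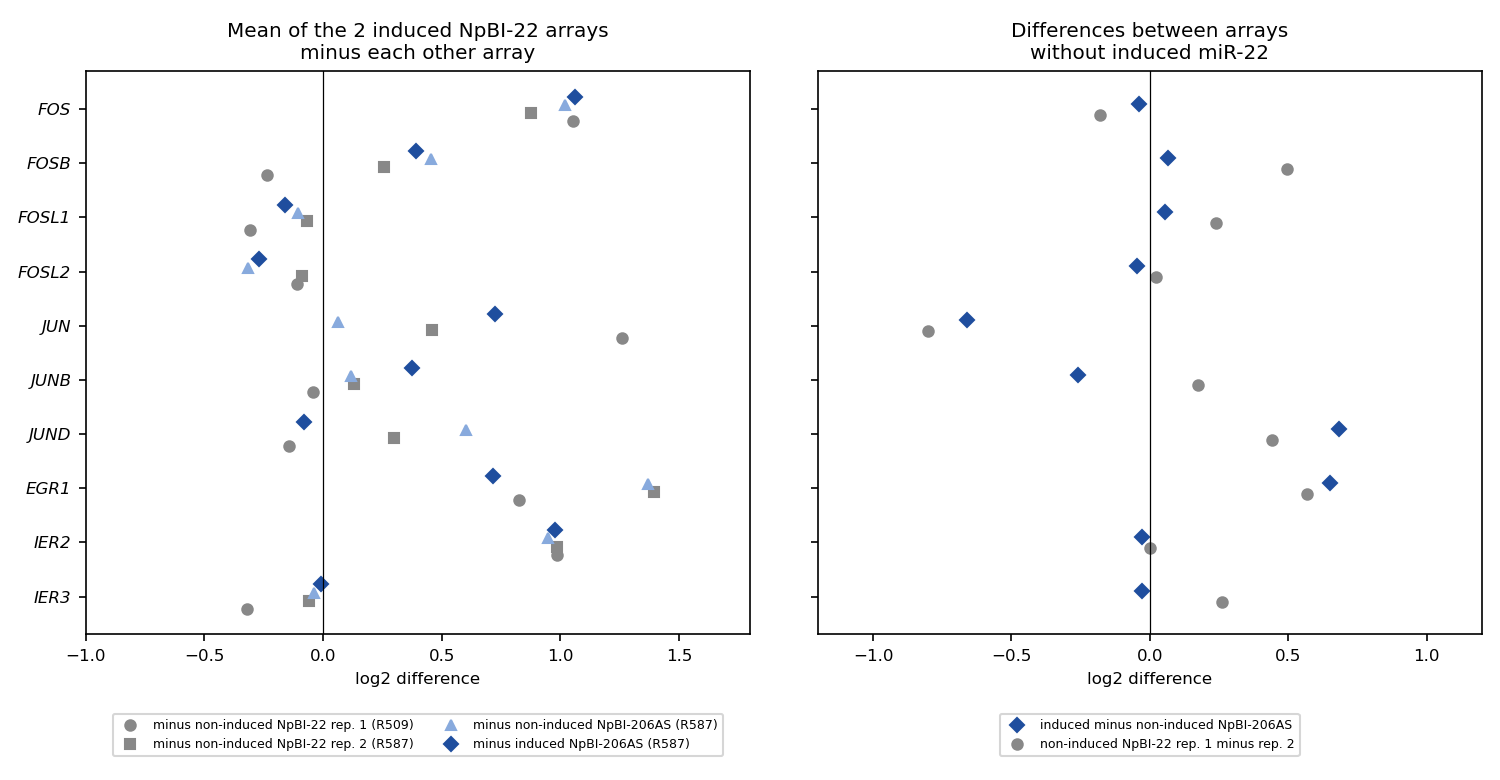
Left, log2 difference of the mean of the 2 induced NpBI-22 arrays from each of the other 4 arrays, with the array code prefix in the key; right, differences between arrays without induced miR-22. The 4 points of IER2 coincide near 1 on the left, those of JUN range from 0.06 to 1.26, and on the right FOS and IER2 stay within 0.18 of 0.

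Among arrays of prefix R587, non-induced NpBI-206AS cells and non-induced NpBI-22 replicate 2 differed by 1.5-fold in 0 of the 10 members (3.75% of all rows), with the largest differences in JUN (0.40) and JUND (-0.31). The non-induced NpBI-22 replicates, of different prefixes, differed by 1.5-fold in JUN alone, which was lower in replicate 1 by a log2 difference of -0.80. Of all rows, 7.52% were at least 1.5-fold lower and 4.89% that much higher. Of the 18417 genes, 917 were that much lower and 593 higher. EGR1 was higher in replicate 1 by 0.57 and FOSB by 0.50. With the 3 R587 arrays as the only controls, FOS, IER2 and EGR1 passed (log2 changes 0.99, 0.97 and 1.16, limma adjusted p = 0.00223, 0.00235 and 0.0107) and JUN did not (0.42, limma adjusted p = 0.173). These 3 arrays come from different conditions, and the fit treats them as replicates. No prefix holds both induced NpBI-22 arrays and other arrays, so no value within a prefix could be had.

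The genes whose profiles over the 6 arrays were most like those of the most variable members were read as a description, over 9123 genes with an SD of at least 0.2. For FOS these were TM9SF2 (Pearson r = 0.998), SLC44A5 (0.997) and GP6 (0.997). TM9SF2, for instance, read 10.37 and 10.45 on the induced NpBI-22 arrays and 9.79 to 9.87 on the others. For EGR1 these were STXBP2 (0.995), FN3K (0.994) and SNORA68 (0.994), all of which were also higher in induced than in non-induced NpBI-206AS cells. The 6 arrays share 2 lines and 3 code prefixes. Both induced NpBI-22 arrays read highest in all 6 of these genes, which largely follows from choosing them by their likeness to FOS or EGR1.

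Other immediate early genes were higher in the induced NpBI-22 cells as well: 4 of 30 measured members of a list outside the 10 rose and 0 fell, against 1.59% and 2.01% of all rows, with a median log2 difference of 0.30. The 4 were RHOB, CCN2, DUSP1 and KLF6. RHOB, a small GTPase of the actin cytoskeleton, read 9.75 and 9.87 on the induced and 7.82 and 8.46 on the non-induced NpBI-22 arrays (log2 change 1.67, SE 0.242, limma adjusted p = 0.0326). CCN2, a secreted matricellular protein also known as CTGF, read 9.26 and 9.44 against 7.95 and 7.91 (log2 change 1.42, SE 0.154, limma adjusted p = 0.0217). With doxycycline, they were 0.08 and 0.15 higher in NpBI-206AS cells.

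DUSP1, a phosphatase that switches off MAP kinases, rose by 1.07 (SE 0.154, limma adjusted p = 0.0323), and KLF6, a zinc-finger factor, by 0.96 (SE 0.147, limma adjusted p = 0.0355). Leaving out any 1 NpBI-22 array left 1 group with a single array, and the calls of these 4 genes were lost with those of all other rows. Against all 4 other arrays 11 of the 30 rose and 0 fell, against 6.32% and 7.43% of all rows. The count of 11 became 16 without non-induced replicate 1, when 7463 of all rows were called in place of 4576. It fell without either induced replicate, which left the induced group a single array. In the NpBI-206AS pair, 0 of the 30 were at least 1.5-fold higher and 1, GEM, was that much lower (-0.72). Beside these stand 1.32% and 2.04% of all rows, and 106 and 129 of 18417 genes. GEM, named here after its value had been seen, encodes a small GTP-binding protein.

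**Figure D4:**
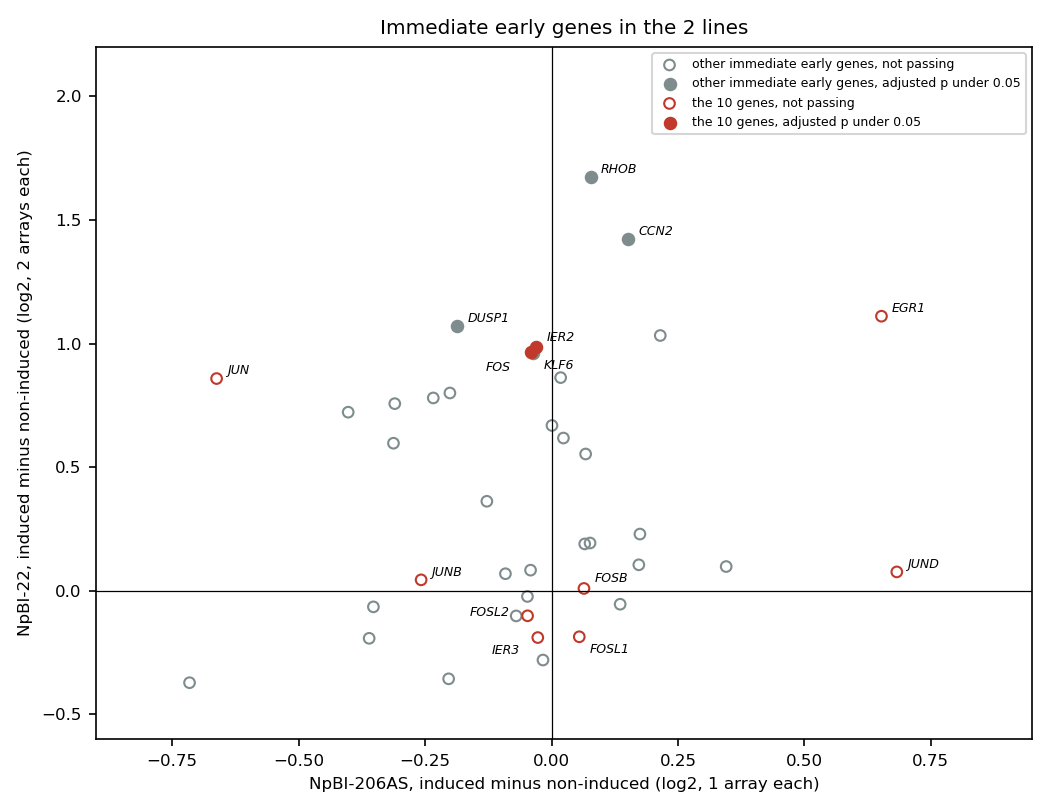
Each point is a gene: the horizontal axis gives induced minus non-induced NpBI-206AS cells (log2, 1 array each), the vertical axis induced minus non-induced NpBI-22 cells (log2, 2 arrays each). FOS, IER2 and KLF6 lie together near 0 on the horizontal and near 1 on the vertical axis, while EGR1 and JUN lie far apart on the horizontal axis.

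Regulators upstream of these genes, mostly kinases and factors of the MAP kinase and serum response pathways, were called in 1 case: 0 of 16 measured rose and 1 fell, against 1.59% and 2.01% of all rows, with a median of -0.031. The fall was that of MAPK9, the JUN kinase JNK2, which read 8.31 and 8.24 on the induced and 9.49 and 9.31 on the non-induced NpBI-22 arrays, and 9.33 and 9.16 in NpBI-206AS cells (log2 change -1.12, SE 0.155, limma adjusted p = 0.0291). Against all 4 other arrays MAPK9 and the ETS factor gene ELK3 fell (log2 changes -1.04 and -0.70, limma adjusted p = 0.00304 and 0.0219), and HRAS rose (0.75, limma adjusted p = 0.0198), so that 1 of 16 rose and 2 fell where 6.32% and 7.43% of all rows did. ELK3 and HRAS were named after their values had been seen.

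Of 13 further bZIP genes, whose products can pair with FOS or JUN proteins or are built like them, 0 passed on induction of NpBI-22 cells; before adjustment, p was under 0.05 for 2 that were higher and 2 that were lower, near the 10.6% and 11% of all rows. The largest differences were those of DDIT3, a stress-induced factor also known as CHOP (1.25, limma adjusted p = 0.0814), and NFE2L1 (-0.67, limma adjusted p = 0.0751). Both passed against all 4 other arrays, DDIT3 upward (1.02, limma adjusted p = 0.0417) and NFE2L1 downward (-0.63, limma adjusted p = 0.00976), 1 of 13 each way beside 6.32% and 7.43% of all rows.

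Of 15 measured genes known as AP-1 targets, 1 rose and 0 fell on induction of NpBI-22 cells, against 1.59% and 2.01% of all rows, with a median of 0.046. The rise was that of HBEGF, which encodes an EGF-like growth factor and read 8.20 and 8.48 on the induced and 6.5 and 6.98 on the non-induced NpBI-22 arrays, and 7.13 and 7.10 in NpBI-206AS cells (log2 change 1.60, SE 0.219, limma adjusted p = 0.0286). Against all 4 other arrays HBEGF and the protease inhibitor gene TIMP1 rose (1.41 and 0.52, limma adjusted p = 0.00509 and 0.0324). The chemokine gene CXCL8 and the chromatin protein gene HMGA1 fell in that comparison (-2.17 and -0.85, limma adjusted p = 0.014 and 0.0352). These were 2 of 15 each way, where 6.32% of all rows rose and 7.43% fell. TIMP1, CXCL8 and HMGA1 were named after their values had been seen. The collagenase gene MMP1 and the stromelysin gene MMP10, often used as readouts of AP-1, lay below the lower quartile of every array.

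Immediate early genes also respond to handling of cells and to stress, and the times of feeding and harvest are not given in the labels. Of 12 listed heat shock genes 10 were measured, since HSPA1A and HSPA1B had no row with their symbol alone. On induction of NpBI-22 cells 0 of these 10 passed, beside 1.59% of all rows upward and 2.01% downward. Before adjustment, limma p was under 0.05 for 2 that were higher and 0 that were lower, beside 10.6% and 11% of all rows. The median was 0.086, and HSPB1 (0.72, limma adjusted p = 0.111) and HSPE1 (0.48, limma adjusted p = 0.139) had the largest differences. HSPB1 alone rose against all 4 other arrays (0.72, limma adjusted p = 0.0197), 1 of 10 beside 6.32% of all rows. The median level of the 10 heat shock genes was 10.76 and 10.71 on the induced NpBI-22 arrays and 10.32 to 10.55 on the others. Both induced arrays lay above all 4 others for 2 genes, HSPB1 and HSPE1, and below them for 2, HSPD1 and BAG3. These counts were near the shares of all rows, 19.4% above and 18.3% below. Their sum on the linear scale was 25606 and 26260 on the induced NpBI-22 arrays and 23661 to 26788 on the others, but the brightest genes, such as HSPA8 (13.07 to 13.26), weigh most in it and changes of dimmer ones hardly show.

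Muscle markers were lower in induced than in non-induced NpBI-22 cells. Of 10, 2 fell and 0 rose, against 2.01% and 1.59% of all rows. The 2 were DES (-1.07, limma adjusted p = 0.0384) and the embryonic myosin gene MYH3 (-2.79, limma adjusted p = 0.0145). Against all 4 other arrays 4 of 10 fell (7.43% of all rows) and 0 rose (6.32%): DES (-0.88, limma adjusted p = 0.017), CHRND (-0.94, 0.042), CDH15 (-0.57, 0.0437) and FGFR4 (-0.59, 0.045), the last 3 named after their values had been seen. MYH3 did not pass there (-1.95, limma adjusted p = 0.0591). It read 5.26 and 4.86 on the induced and 8.02 and 7.69 on the non-induced NpBI-22 arrays, and 6.40 and 5.95 in NpBI-206AS cells without and with doxycycline. Against induced NpBI-206AS cells the induced NpBI-22 mean was higher for 3 of the 10 markers, most for MYOG. MYOG read 9.50 and 9.01 on the induced and 9.79 and 10.11 on the non-induced NpBI-22 arrays, and 8.86 and 8.57 in NpBI-206AS cells. It was named here after its values had been seen. Of the 10, 4 were at least 1.5-fold lower in non-induced NpBI-206AS cells than in non-induced NpBI-22 replicate 2, and 0 higher. Among 18417 genes, 168 were that much lower and 138 higher. Summed on the linear scale, the 10 muscle markers gave 5366 and 4957 on the induced NpBI-22 arrays and 5946 to 8264 on the others. The part of handling, of stress and of differentiation state in the values of FOS and IER2 was not tested.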

How the data were processed

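Total RNA of 6 RD18 cultures was read on 1 Affymetrix Human Gene 1.0 ST array each. Per the submitters' processing notes, the authors used Partek and RMA, which yields log2 expression; for versions, parameters and genome build the entry is "not given in the sources used here". RMA corrects background, gives the probe values of all arrays 1 distribution and then combines the probes of a transcript. This hides any shift common to every transcript, though array medians of the deposited values still ran from 5.66 to 5.75. No detection calls came with the values. Of 33297 rows, 19460 had a single symbol in the platform annotation, with symbols updated from the NCBI genes of GRCh38.p14 (19429 matched by ID); rows with several symbols (1754) or none (12083) named no gene.

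The deposited values were tested two-sided with limma 3.58.1 (R 4.3.3); p-values were adjusted by Benjamini-Hochberg over 33297 rows and called under 0.05. Induction and the difference between the lines came from 1 model with a mean per group over 6 arrays and eBayes (2 residual and 3.62 prior degrees of freedom), and the comparison with 4 other arrays from a model with 2 groups (4 residual degrees of freedom). No replicate block was used, since the labels only number the replicates. The fits were tested on simulated data. Intervals are 95% limma intervals. The members and lists were chosen with earlier results of these data known. Named genes were the 10 members; from each list the called genes, up to 4, or else the 2 with the largest difference; and for the 2 most variable members the 3 genes of highest Pearson r. Alternatives covered each NpBI-22 array left out, only NpBI-22 arrays, the replicate block, 3 normalizations, a filter on dim rows, a variance trend, averaged rows and R587 controls only. Promoter and microRNA sequences were read from RefSeq tables; 8 of 10 members were matched.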

Additional observations from a re-analysis of the deposited data

Results flagged for a closer look

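Among the 4 arrays without induced miR-22, 1 member had an array that stood apart from the others: IER3 in non-induced NpBI-22 replicate 1, at a log2 expression of 6.59 against 6.28 to 6.33 on the other 3. The gap to the nearest array was 0.841 of the whole range. Chance gives such a gap in about 5% of groups, and 10 were looked at.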

How the results depend on the processing

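Over the 10 genes, 3 comparisons and all settings, 10 member values lost a call, 2 gained one and 12 changed sign. How many held is no measure of stability, since some settings could not differ: the NpBI-22 arrays alone give the same induction fit, averaging rows can change the value of IER3 only, and, against all 4 other arrays, R587 controls only is the same as leaving out non-induced replicate 1. With each NpBI-22 array left out in turn, members called on induction went from 2 to 0 and rows called from 1200 to 0; FOS then gave 0.88 to 1.06 and IER2 0.87 to 1.11, so the calls and not the directions were lost. Each arm left with 1 array is assumed to vary like the others. Against all 4 other arrays, leaving out arrays gave 897 to 7463 rows in place of 4576, 7463 being also the value with R587 controls only; the other immediate early genes called were 0 each time in place of 4 on induction, and 2 to 16 in place of 11 against all 4. The leave-out settings of that list were chosen after seeing the data. With the replicate block, induction called 2955 rows and 3 members, the added one being EGR1 (limma adjusted p = 0.0297); the replicate 2 minus replicate 1 differences of the 2 NpBI-22 groups correlated at r = 0.196 over rows, and with only 2 pairs the numbers were not taken to pair the samples. Leaving out the dimmest 50 percent of rows gave 2609 rows and also called EGR1 (limma adjusted p = 0.0193), with fewer rows tested. Centring each array on its median turned 531 higher and 669 lower rows into 718 and 574.

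The sign changes were all in genes that passed nowhere. On induction, without induced replicate 1, FOSB, JUNB and JUND gave -0.13, -0.090 and -0.066, and without non-induced replicate 2 -0.24, -0.042 and -0.14. Over all arrays left out in turn FOSB ranged from -0.24 to 0.26, JUNB from -0.090 to 0.18 and JUND from -0.14 to 0.30. With the NpBI-206AS response subtracted, FOSB ranged from -0.30 to 0.19 over those settings; it gave 0.085 without induced replicate 2, 0.19 without non-induced replicate 1, 0.043 with centred arrays, 0.027 with quantile normalization applied again and 0.011 with cyclic loess, and FOSL2 gave 0.044 with centred arrays; the cause was not tested. The 30 values recomputed for the NpBI-206AS pair moved by less than the SD between NpBI-22 replicates.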
